A study of Mus musculus with 20 samples.

Results

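The sarcomere and Z-disc genes described here are 51 symbols of contractile, elastic and anchoring proteins of striated muscle, taken from the deposited count table by gene name. They cover the thick filament, the thin filament, titin and its partners, the Z-disc, the M-band, and factors of myosin assembly and protein turnover. All 51 were present, as 52 of the 25308 gene entries, because the ubiquitin ligase Fbxo32 had 2 entries (ENSMUSG00000022358 and ENSMUSG00000116076) that shared its reads almost evenly. All 52 entries passed the filter on low counts, among 14477 entries tested.
In the sarcomere, myosin thick filaments pull on actin thin filaments that are anchored at the Z-disc, and titin spans from the Z-disc to the M-band as a spring. Several of these proteins exist as isoforms from separate genes, which the heart exchanges between fetal and adult life, between atrium and ventricle, or under load. In the adult mouse ventricle the α-myosin heavy chain Myh6, the cardiac actin Actc1, the troponin subunits Tnni3 and Tnnt2, and the light chains Myl2 and Myl3 are the usual forms, whereas Myh7, Acta1, Tnni1, Myl4 and Myl7 are known as fetal, skeletal or atrial forms.
RNA from the apex of the heart was sequenced in 20 mice. The 9 AL mice were λS-DH animals with amyloid deposits in the heart, the 4 LS mice were λS-DH animals that had no induction and no deposits, and the 7 Ctrl mice were DH animals. λS-DH mice express the light chain of an AL amyloidosis patient from the mouse kappa locus in plasma cells, and all 3 groups share the DH-LMP2A background, which lacks immunoglobulin heavy chains. Deposits were induced in λS-DH mice by 1 intravenous injection of light chain variable domain, as sonicated fibrils or in soluble form, and control mice were matched for age. Which of these forms an AL mouse received and its age at death are not given in the sources used here.
Libraries came from 2 sequencing runs. The first held 15 mice (7 AL, 4 LS and 4 Ctrl) with totals of 43993277 to 62668146 counts, and the second held AL8, AL9, Ctrl5, Ctrl6 and Ctrl7 with totals of 7867642 to 11794615. A count of 3, used as the limit of detection, corresponded to 0.0474 to 0.0748 CPM (counts scaled to library size by TMM, per 1000000) in the first run and to 0.231 to 0.356 CPM in the second. The study used mice of both sexes, and the labels used here do not give the sex of a mouse. Xist, a transcript of female cells, was at 0.141 to 400 CPM in the first run and at 0 to 0.199 CPM in the second. With Xist as a covariate 5 members were called against Ctrl (7.09% of all entries) and 7 against LS (8.48%). The part of sex in the result was not tested otherwise. The tissue carried the RNA of cardiomyocytes, since 15 of 15 markers of that cell type outside the members were tested, with a summed level of 26700 to 46900 CPM per mouse. Markers of skeletal muscle summed to 38.3 to 75.4 CPM. Of 18, 9 were tested, with a median log2FC of 1.00 in AL against Ctrl mice and 0.61 against LS. Myog was at 0 counts in all mice. Liver genes differed with the groups. Of 26, 23 were called lower in AL against Ctrl mice (median log2FC -4.02) and 19 against LS (median -3.26), beside 3.71% and 3.03% of all entries, with none higher. Their sums were 36.7 to 172 CPM in AL, 60.9 to 388 CPM in LS and 38.1 to 540 CPM in Ctrl mice. With the liver genes as a covariate 8 members were called against Ctrl (7.75% of all entries) and 7 against LS (8.5%), where 6 and 7 were called without it. The called members were not all the same. Against Ctrl, Myl7 lost its call (log2FC 1.62) and Mylk3 gained one (-0.64). Against LS, Acta1 lost its call (1.47) and Mybpc2 gained one (1.25). The main counts are also given without the 5 mice of highest Alb (LS1, LS3, Ctrl1, Ctrl3 and Ctrl4). That leaves LS2 and LS4, and Ctrl2 as the only Ctrl mouse of the first run, beside all AL mice.

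Promoters of the members held several short motifs in larger shares than all promoters did, which is given as a description with no test. In the RefSeq table (GRCm38.p6, 250 bases before to 50 bases after each annotated start) 44 of the 51 symbols had an entry, and Myom2, Myoz1, Xirp1, Myot, Tcap, Lmod3 and Fbxo32 had none. A CArG box, the site of serum response factor, was found for 9 of the 44 symbols (20.5%) and for 1.81% of the 27025 genes in the table, and counted by promoter in 18.3% of 60 member promoters and 1.63% of 32851. The motif of MEF2 factors occurred for 7 symbols (15.9%, against 3.7% of all genes). CATTCC, the core of the TEAD motif, occurred for 18 symbols (40.9% against 16.6%). The E-box CAGCTG occurred for 12 symbols (27.3% against 18.3%). The GATA-factor site AGATAA occurred for 9 symbols (20.5% against 12.7%). The TATA box TATAAA occurred for 12 symbols (27.3% against 15.7%). Both strands were searched, and no match overlapped between CArG and CATTCC in the promoters printed here. These are matches of letters and not measured binding.
The 9 symbols with a CArG box were Myl3, Myl7, Actc1, Acta1, Ldb3, Nebl, Myom1, Fhl1 and Fhl2, among them members that were higher in AL mice, lower, or not called. Promoters are shown for Myl7, Acta1 and Nebl, which were called in opposite directions with a CArG box each. The box of Nebl lies at an annotated start inside the gene. Also shown are Actc1, the adult partner of Acta1, and Synpo2l, a called member with a MEF2 motif. All 5 lie on the minus strand and are written 5′ to 3′ along it, with the CArG box, the MEF2 motif and CATTCC in capitals.
Myl7, chr11:5898733-5899032: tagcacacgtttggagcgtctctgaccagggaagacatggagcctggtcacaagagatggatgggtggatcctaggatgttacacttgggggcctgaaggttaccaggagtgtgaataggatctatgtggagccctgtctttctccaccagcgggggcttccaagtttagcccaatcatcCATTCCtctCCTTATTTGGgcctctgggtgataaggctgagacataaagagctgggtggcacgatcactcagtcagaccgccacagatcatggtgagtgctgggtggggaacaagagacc
Acta1, chr8:123894726-123895025: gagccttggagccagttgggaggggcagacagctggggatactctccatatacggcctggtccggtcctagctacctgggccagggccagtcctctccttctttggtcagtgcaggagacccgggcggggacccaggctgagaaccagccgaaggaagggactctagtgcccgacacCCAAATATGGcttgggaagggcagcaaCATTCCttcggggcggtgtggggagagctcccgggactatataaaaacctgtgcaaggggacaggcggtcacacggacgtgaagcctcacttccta
Actc1, chr2:114052826-114053125: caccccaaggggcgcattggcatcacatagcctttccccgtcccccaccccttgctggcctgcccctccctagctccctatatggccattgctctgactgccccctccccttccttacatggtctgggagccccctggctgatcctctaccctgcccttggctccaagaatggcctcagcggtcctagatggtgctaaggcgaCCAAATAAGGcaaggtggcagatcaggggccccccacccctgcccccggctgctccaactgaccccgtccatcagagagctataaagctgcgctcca
Nebl, chr2:17462807-17463106: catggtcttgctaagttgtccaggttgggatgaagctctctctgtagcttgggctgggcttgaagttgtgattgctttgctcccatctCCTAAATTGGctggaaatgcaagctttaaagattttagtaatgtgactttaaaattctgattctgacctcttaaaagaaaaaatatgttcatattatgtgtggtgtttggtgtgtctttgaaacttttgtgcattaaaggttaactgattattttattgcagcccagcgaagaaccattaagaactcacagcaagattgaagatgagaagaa
Synpo2l, chr14:20668305-20668604: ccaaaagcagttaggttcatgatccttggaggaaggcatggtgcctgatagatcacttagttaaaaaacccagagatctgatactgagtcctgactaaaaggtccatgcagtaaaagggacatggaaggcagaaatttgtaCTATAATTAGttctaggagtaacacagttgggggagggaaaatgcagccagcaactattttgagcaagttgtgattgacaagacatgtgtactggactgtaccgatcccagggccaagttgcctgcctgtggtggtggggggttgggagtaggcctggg
In Myl7 the CArG box CCTTATTTGG began 61 bases before the start and CATTCC 70 bases before it. In Acta1 CCAAATATGG began at 73 bases and CATTCC at 46 bases before the start, and in Actc1 CCAAATAAGG began at 47 bases. Nebl had 4 annotated starts. The one shown, the most downstream, had a CArG box in its window, CCTAAATTGG at 162 bases before the start, and the other 3 had none. That start lies inside the gene, and the bases just before it (ttattttattgcag) read like the end of an intron. Whether this window acts as a promoter was not tested. Synpo2l had 2 starts, each with a MEF2 motif, and CTATAATTAG lay 109 bases before the one shown.

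Per kilobase of exon the members spanned the whole range of abundance. In Ctrl mice Myh6 (4805 CPM per kb), Actc1 (4436), the ventricular regulatory light chain Myl2 (3916) and the ventricular essential light chain Myl3 (1820) led the mean levels. The slow skeletal troponin I Tnni1 (0.0496 CPM per kb), the skeletal Z-disc protein Myoz1 (0.0961), the stress-responsive ankyrin protein Ankrd2 (0.198), the atrial light chain Myl4 (0.281), the M-band protein Myom3 (0.502) and the atrial light chain Myl7 (0.648) lay at the bottom. Together the members held 7.53% to 9.15% of all reads counted per mouse in the first run and 11.2% to 12.8% in the second, and the AL, LS and Ctrl ranges overlapped within the first run.

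**Figure D1:**
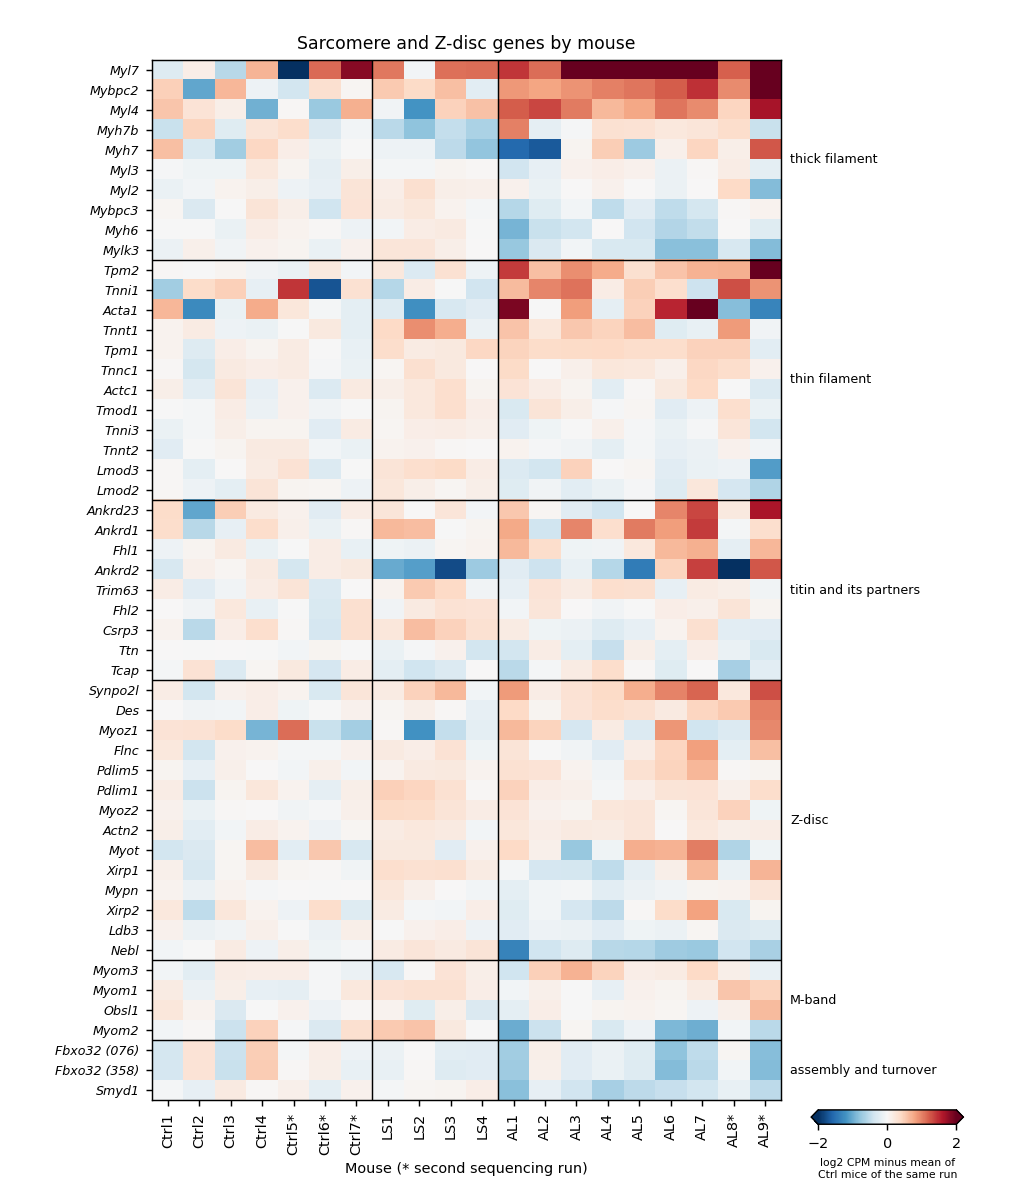
Heat map of the 52 member entries in the 20 mice, as log2 CPM minus the mean of the Ctrl mice of the same run (colour scale from -2 to 2; asterisks mark the second run), with genes grouped by role. Myl7, Mybpc2, Myl4 and Tpm2 are red across nearly all AL mice, Nebl, Smyd1 and Mylk3 are blue across AL mice, and Acta1 differs in sign between AL mice.

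AL mice differed from Ctrl mice in 6 members, with fold changes of 1.66 to 3.91 for those that rose. Mybpc2, Myl4, Myl7, Synpo2l and Tpm2 were higher and Nebl was lower, by edgeR's quasi-likelihood test with Benjamini-Hochberg adjustment (FDR under 0.05), where calls also needed a log2FC of 0.58 or more in size. They were 11.5% of the 52 entries, beside 7.81% of all entries tested, and the 5 higher ones were 9.62%, beside 4.1%. By FDR alone 12 members passed (23.1%, beside 26.2% of all), adding Des and Tpm1 to the higher and Ldb3, Myh6, Mylk3 and Smyd1 to the lower ones. The median log2FC was 0.11 over the members and 0.01 over all entries, and 32 of 52 members had a log2FC above 0 (61.5%, beside 51.6% of all). By role the median was 0.01 for the thick filament (10 entries), 0.12 for the thin filament (12), 0.10 for titin and its partners (9), 0.17 for the Z-disc (14), 0.14 for the M-band (4) and -0.40 for assembly and turnover (3, none above 0). The last role holds only Smyd1 and the duplicate entries of Fbxo32, which share their reads. Without the 5 mice of highest Alb, 4 members were called (Tpm2, Mybpc2, Synpo2l and Des), beside 3.39% of all entries, and 4 passed by FDR alone, beside 6.63%. The log2FC of the calls lost there were 1.53 for Myl7, 0.94 for Myl4 and -0.53 for Nebl. Ctrl2 was the only Ctrl mouse of the first run in that fit, so fewer mice and less liver RNA cannot be told apart.
AL mice differed from LS mice in 7 members. Acta1, Myh7b, Myl4 and Tpm2 were higher and Mylk3, Myom2 and Nebl were lower, which is 13.5% of the members beside 8.9% of all entries by the same rule. By FDR alone 12 passed (23.1%, beside 23.4%), adding Des to the higher and Csrp3, Mybpc3, Myh6 and Smyd1 to the lower ones. The median log2FC was -0.02 over the members and 0.01 over all entries. Without the 5 mice of highest Alb, which include LS1 and LS3, 2 members were called (Myh7b and Nebl), beside 3.19% of all entries, and 3 passed by FDR alone, beside 5.23%. The log2FC of the calls lost there were 1.73 for Acta1, 1.12 for Myl4, 1.04 for Tpm2, -0.75 for Myom2 and -0.57 for Mylk3. Both comparisons use the same AL mice.
Groups that did not overlap were counted without a test. Every AL mouse of the first run lay above every Ctrl mouse of that run for 6 members (Mybpc2, Myl4, Myl7, Synpo2l, Tpm1 and Tpm2), beside 5.68% of all entries, and below for 2 (Nebl and Smyd1), beside 8.66%. Over all mice, AL lay above LS for 4 members (Mybpc2, Myh7b, Myl7 and Tpm2), beside 5.24% of all entries, and below for 4 (Myl2, Mylk3, Nebl and Smyd1), beside 8.25%. These shares of all entries are of the same order as those of the members. AL and LS mice differ in the injection as well as in deposits, and these cannot be told apart here. In bulk tissue fewer cells of a type and less RNA per cell cannot be told apart.

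**Figure D2:**
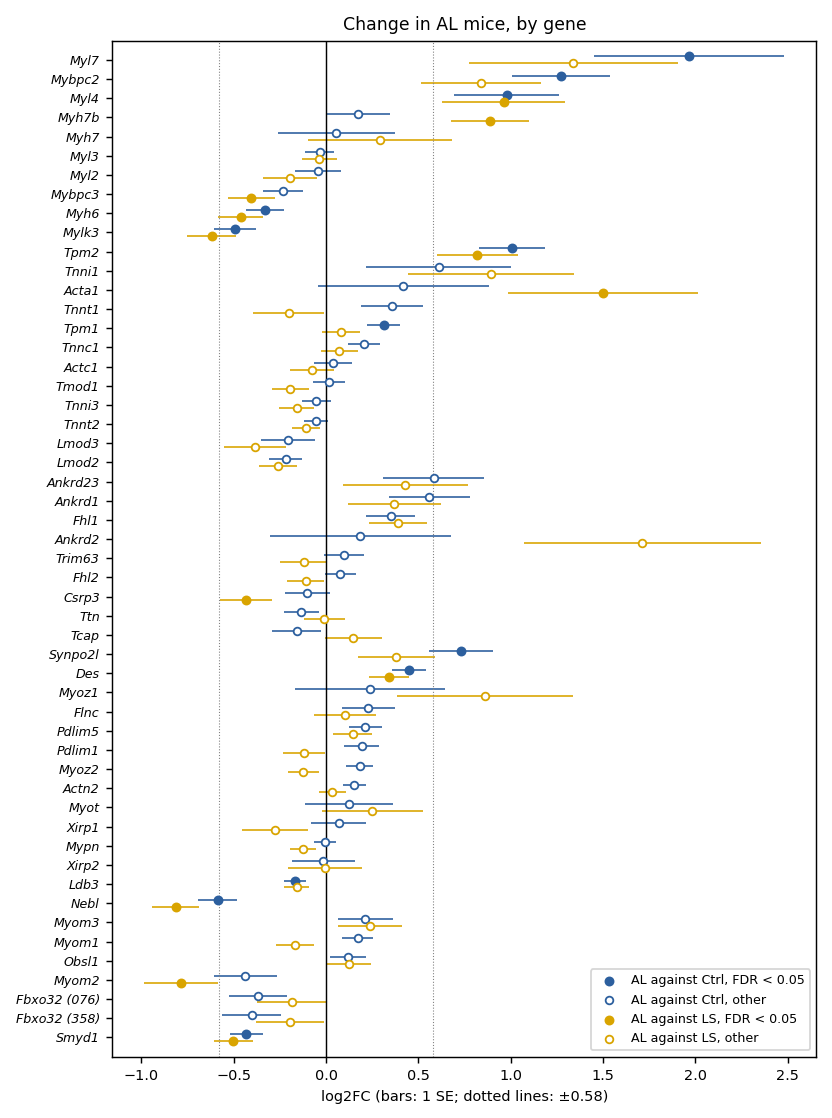
Log2FC of each member entry in AL against Ctrl (blue) and AL against LS mice (yellow), with bars of 1 SE and filled points at an FDR under 0.05. Tpm2 and Myl4 are filled to the right of 0.58 in both comparisons, Nebl is filled to the left of -0.58 in both, and the pairs of points for most members lie within 0.5 of 0.

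In the thick filament, the fast skeletal myosin binding protein Mybpc2 (ENSMUSG00000038670, chromosome 7, 44501699 to 44524656) was higher in every AL mouse than in every other mouse. Its level had a lowest value of 30.6, a median of 37.1 and a highest value of 138 CPM in AL mice. LS1 to LS4 had 25.3, 23.1, 26.7 and 15.2 CPM, and Ctrl mice had 8.58, 22.1 and 28 CPM as lowest, median and highest. AL9, at 138 CPM, stood far above the next AL mouse at 48.8 CPM, but even the lowest AL mouse exceeded the highest Ctrl mouse. In the first run AL mice ranged from 30.6 to 48.8 CPM and Ctrl mice from 8.58 to 28 CPM. In the second AL8 and AL9 had 41.25 and 137.9 CPM beside 16.63 to 26.99 CPM in Ctrl mice. Mybpc2 had a log2FC of 1.27 (SE 0.266, FDR = 0.00228, edgeR's quasi-likelihood test with Benjamini-Hochberg adjustment) against Ctrl, and 0.94 (FDR = 0.00469) without AL9. Against LS its log2FC of 0.84 did not pass (FDR = 0.0674), although without AL8, AL9 or Ctrl2 the FDR was 0.0495, 0.0304 and 0.0489. Entries in which every AL mouse exceeded every Ctrl mouse made up 0.484% of those tested, and among members these were Mybpc2 and Tpm2. The cardiac paralog Mybpc3 had a mean of 2938 ± 774 CPM (SD, n = 9) in AL mice, 3520 ± 276 for LS (n = 4) and 3655 ± 796 for Ctrl (n = 7), and was lower in AL against LS mice (log2FC -0.40, SE 0.128, FDR = 0.0286) while it did not pass against Ctrl (-0.23, FDR = 0.115).

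**Figure D3:**
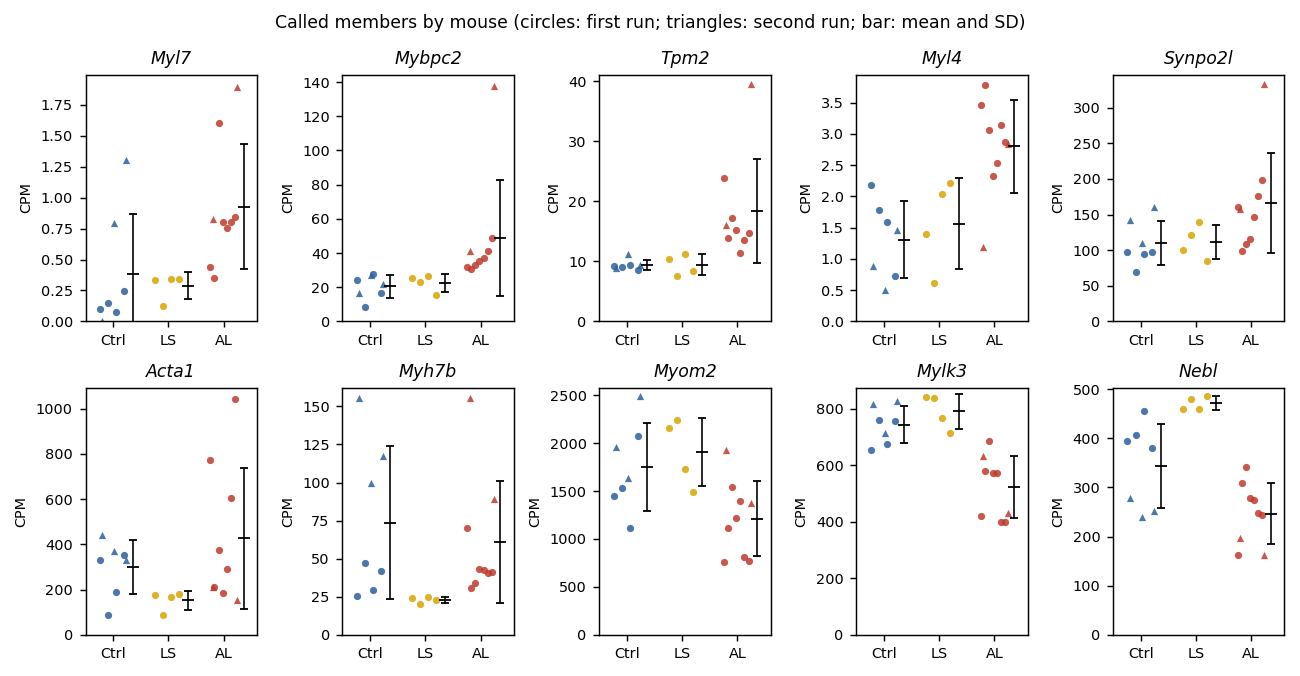
CPM per mouse of the 10 members called in AL against Ctrl or AL against LS mice, with circles for the first run, triangles for the second, and bars for the group mean and SD; each axis starts at 0. The lowest AL mouse lies above the highest Ctrl and LS mice for Mybpc2 (30.6 CPM) and Tpm2 (11.3 CPM), and the Ctrl triangles of Nebl and Myh7b lie apart from the Ctrl circles.

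The atrial light chains were higher in AL than in Ctrl mice, Myl4 at a low level and Myl7 near the limit of detection. Myl4, the atrial essential light chain (ENSMUSG00000061086, chromosome 11, 104550663 to 104595753), ranged from 1.19 to 3.79 CPM in AL mice with a median of 2.88. LS1 to LS4 had 1.39, 0.61, 2.04 and 2.21 CPM, and Ctrl mice ranged from 0.498 to 2.18 CPM with a median of 1.46. In the first run every AL mouse lay above every LS mouse (as for 8.94% of all entries) and every Ctrl mouse, and in the second AL8 lay below Ctrl7. Its log2FC was 0.98 (SE 0.284, FDR = 0.0165) against Ctrl and 0.96 (SE 0.331, FDR = 0.0422) against LS. The second call was lost without any one of AL1, AL2, AL3, AL6, AL7, LS1, LS2, LS3 or Ctrl3 (FDR 0.0506 to 0.14).
Myl7, the atrial regulatory light chain (ENSMUSG00000020469, chromosome 11, 5896637 to 5898782), had 28, 16, 95, 43, 36, 40, 38, 7 and 22 counts in AL1 to AL9. LS1 to LS4 had 14, 6, 17 and 18 counts, and Ctrl1 to Ctrl7 had 5, 8, 3, 12, 0, 8 and 17. Scaled to depth, AL mice ranged from 0.35 to 1.89 CPM, LS mice from 0.126 to 0.347 CPM and Ctrl mice from 0 to 1.31 CPM. The AL and Ctrl ranges separated in the first run, and in the second Ctrl7 lay above AL8. Its log2FC was 1.97 (SE 0.516, FDR = 0.00961) against Ctrl and 1.34 (SE 0.566, FDR = 0.0926) against LS, and at 3 counts or fewer in Ctrl3 and Ctrl5 the size is uncertain. With the liver genes as a covariate the log2FC against Ctrl was 1.62 and the call was lost (FDR = 0.0684). Of the atrial markers listed beside the members, Nppa, which encodes atrial natriuretic peptide, and Dkk3 were called higher against Ctrl, at log2FC of 2.72 (FDR = 0.00153) and 1.5 (FDR = 0.00766). The atrial genes Sln and Bmp10 reached at most 0.0885 and 0.231 CPM in any mouse. The 12 atrial markers summed to 909 to 1840 CPM in AL, 890 to 1330 in LS and 728 to 905 in Ctrl mice, and the part of atrial tissue in the result was not tested.
The ventricular light chains did not pass. Myl2 had 7921 ± 1717 CPM in the 9 AL mice, 9621 ± 698 in the 4 LS mice and 7636 ± 1361 in the 7 Ctrl mice, with a log2FC of -0.04 against Ctrl (95% interval -0.30 to 0.22). AL9, at 3496 CPM, lay below all other mice. Myl3 had a log2FC of -0.04 (95% interval -0.20 to 0.13).
The α-myosin heavy chain Myh6 fell by less than the size threshold. In the first run AL mice ranged from 13750 to 26190 CPM and Ctrl mice from 23890 to 28850 CPM, and in the second AL8 and AL9 had 40650 and 34360 CPM beside 37580 to 42740 CPM in Ctrl mice. LS mice had 25180 to 29460 CPM. Of the 7 AL mice of the first run, 6 lay below all LS and Ctrl mice of that run. The log2FC was -0.33 (SE 0.102, FDR = 0.0225) against Ctrl and -0.46 (SE 0.121, FDR = 0.0107) against LS.
The β-myosin heavy chain Myh7, the fetal form that rises in many models of cardiac load, did not pass in either comparison. Its lowest, median and highest values were 391.6, 1342 and 4928 CPM in AL mice, and 771, 1896 and 2293 CPM in Ctrl mice. LS1 to LS4 lay between 721 and 1170 CPM. AL2 and AL1, at 391.6 and 426 CPM, were the lowest of the 20 mice and AL9, at 4928, the highest, so AL mice lay on both sides of the Ctrl range. The log2FC was 0.06 against Ctrl (95% interval -0.60 to 0.72, FDR = 0.92) and 0.29 against LS (95% interval -0.53 to 1.11). Myh6 and Myh7 are neighbours on chromosome 14 with near-identical sequence, so the division of their reads by the authors' quantification is uncertain.
The slow-tonic myosin Myh7b (ENSMUSG00000074652, chromosome 2, 155611212 to 155634307) separated AL from LS but not from Ctrl mice. LS1 to LS4 had 23.9, 19.9, 25.1 and 22.6 CPM. AL mice of the first run ranged from 30.8 to 70 CPM and Ctrl mice of that run from 25.6 to 47.4 CPM, so LS mice lay below both. In the second run the values were 155 and 89.2 CPM in AL8 and AL9 and 99.4 to 155 CPM in Ctrl mice. The log2FC was 0.89 (SE 0.213, FDR = 0.00629) against LS and 0.17 (SE 0.175, FDR = 0.495) against Ctrl.
Mylk3, the cardiac myosin light chain kinase (ENSMUSG00000031698, chromosome 8, 85324303 to 85386345), was lower in AL mice. AL mice had 397, 574 and 684 CPM as lowest, median and highest values, LS mice 715 to 841 CPM, and Ctrl mice 655, 756 and 828 CPM. The AL and LS ranges did not overlap, and of the AL mice only AL3, at 684 CPM, lay within the Ctrl range. The log2FC was -0.62 (SE 0.133, FDR = 0.00312) against LS and -0.49 (SE 0.114, FDR = 0.00453) against Ctrl, the latter under the size threshold. Without AL6 the log2FC against LS was -0.58, just under the threshold in size (FDR = 0.00558). The related kinase gene Mylk4, which is no member, fell by more, with 109 ± 45.3 CPM in the 9 AL mice, 262 ± 37.2 in the 4 LS mice and 375 ± 100.5 in the 7 Ctrl mice, and a log2FC of -1.68 (FDR = 9.7e-05) against Ctrl.

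In the thin filament, β-tropomyosin Tpm2 (ENSMUSG00000028464, chromosome 4, 43514711 to 43523765) was also higher in every AL mouse than in every other mouse. AL mice had 11.3, 15.2 and 39.5 CPM as lowest, median and highest values, LS1 to LS4 had 10.47, 7.51, 11.25 and 8.44 CPM, and Ctrl mice had 8.65, 9.21 and 11.15 CPM. The margin was small, since the lowest AL mouse, AL5, had 11.32 CPM beside LS3 at 11.25 and Ctrl6 at 11.15. The log2FC was 1.01 (SE 0.181, FDR = 0.000817) against Ctrl, and 0.79 (FDR = 0.00115) without AL9. Against LS it was 0.82 (SE 0.22, FDR = 0.012), and without LS2 the call was lost (0.72, FDR = 0.0503). The major cardiac tropomyosin Tpm1 was higher in AL against Ctrl mice at a smaller size, with 6502 ± 765 CPM (n = 9) against 5373 ± 763 (n = 7) and a log2FC of 0.31 (SE 0.0887, FDR = 0.0151). LS mice, at 6017 ± 498 CPM (n = 4), lay between them, and AL against LS did not pass (0.08, FDR = 0.616).
Skeletal α-actin Acta1 (ENSMUSG00000031972, chromosome 8, 123891769 to 123894751) varied widely among AL mice. AL1 to AL9 had 772, 209, 373, 185, 289, 604, 1044, 209 and 152 CPM. LS1 to LS4 had 175, 89.6, 167 and 180 CPM, and Ctrl1 to Ctrl7 had 330, 86.7, 191, 351, 442, 369 and 332 CPM. AL1, AL6 and AL7 stood above all other mice, and the AL mice of the second run lay below the Ctrl mice of that run. The log2FC was 1.5 (SE 0.514, FDR = 0.0412) against LS and 0.42 (SE 0.463, FDR = 0.535) against Ctrl. The call against LS was lost without any one of AL1, AL6, AL7 or the 4 LS mice (FDR 0.0625 to 0.127). It was also lost with the liver genes as a covariate (log2FC 1.47, FDR = 0.101). Cardiac actin Actc1, at 7722 ± 1368 CPM in AL (n = 9) and 7177 ± 1118 in Ctrl mice (n = 7), had a log2FC of 0.04 (95% interval -0.18 to 0.25).
No troponin subunit passed in AL mice. Slow skeletal troponin T Tnnt1 had 13.2 ± 3.31 CPM in the 9 AL mice, 15.5 ± 4.54 in the 4 LS mice and 10.1 ± 1.25 in the 7 Ctrl mice, with a log2FC of 0.35 (FDR = 0.125) against Ctrl and -0.20 (FDR = 0.472) against LS. Slow skeletal troponin I Tnni1 stayed at 0 to 24 counts per mouse and had a log2FC of 0.61 (FDR = 0.263) against Ctrl and 0.89 (FDR = 0.155) against LS. The cardiac forms Tnnt2, Tnni3 and Tnnc1 had log2FC of -0.05, -0.05 and 0.21 against Ctrl. The thin filament caps and nucleators Tmod1, Lmod2 and Lmod3 had log2FC of 0.02, -0.22 and -0.21 (FDR = 0.906, 0.0724 and 0.315).
Ratios of paired isoforms, which cancel the library scaling, were compared by exact permutation tests within runs (two-sided, adjusted over 7 pairs and 3 comparisons). They were taken as differences of log2 CPM with a prior count of 2, so that pairs with a low member are drawn toward that floor. The log2 ratio of Tpm2 to Tpm1 was 0.64 higher in AL than in Ctrl mice (9 against 7 mice, p = 0.00242, adjusted p = 0.0175, exact permutation test), that of Myl4 to Myl3 was 1.06 higher (adjusted p = 0.0175) and that of Myl7 to Myl2 was 2.06 higher (adjusted p = 0.0175). The adjusted p of the Tpm2 and Myl7 pairs rose to 0.076 and 0.061 without AL9, and in the first run alone the Tpm2 ratio was 0.36 higher (adjusted p = 0.127). The smallest p possible in AL against Ctrl was 0.000303.
Against LS, where only the 7 AL mice of the first run enter, the same 3 ratios were higher by 0.61, 1.11 and 1.46 (adjusted p 0.0212, 0.0212 and 0.0175 by the exact permutation test), as was Acta1 to Actc1 by 1.54 (adjusted p = 0.0273). The p of 0.00303 for Myl7 to Myl2 is the smallest this design allows. Without LS2 none of the 4 passed (adjusted p 0.0656 for each), and without LS4 Acta1 to Actc1 and Tpm2 to Tpm1 did not (adjusted p 0.0583 and 0.123). The Tpm2 ratio also missed the threshold without AL2, AL4, AL6 or AL7 (adjusted p 0.05 to 0.0714) and the Acta1 ratio without AL3 (0.0571).
Myh7 to Myh6 and the troponin pairs did not pass in any comparison. Per exon length, Myh7 made up 1.56% to 10.1% of the pair in AL mice (median 4.79%), 2.12% to 3.5% in LS mice and 2.46% to 5.39% in Ctrl mice (median 4.02%). Its log2 ratio was 0.28 higher in AL than in Ctrl mice (p = 0.434, adjusted p = 0.507, exact permutation test), but 0.06 without AL9 and 0.04 in the first run alone. The highest share belonged to AL9 and the lowest to AL2, on either side of all control mice. Between LS and Ctrl mice 0 of 7 ratios passed, with a smallest possible p of 0.0286.

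**Figure D4:**
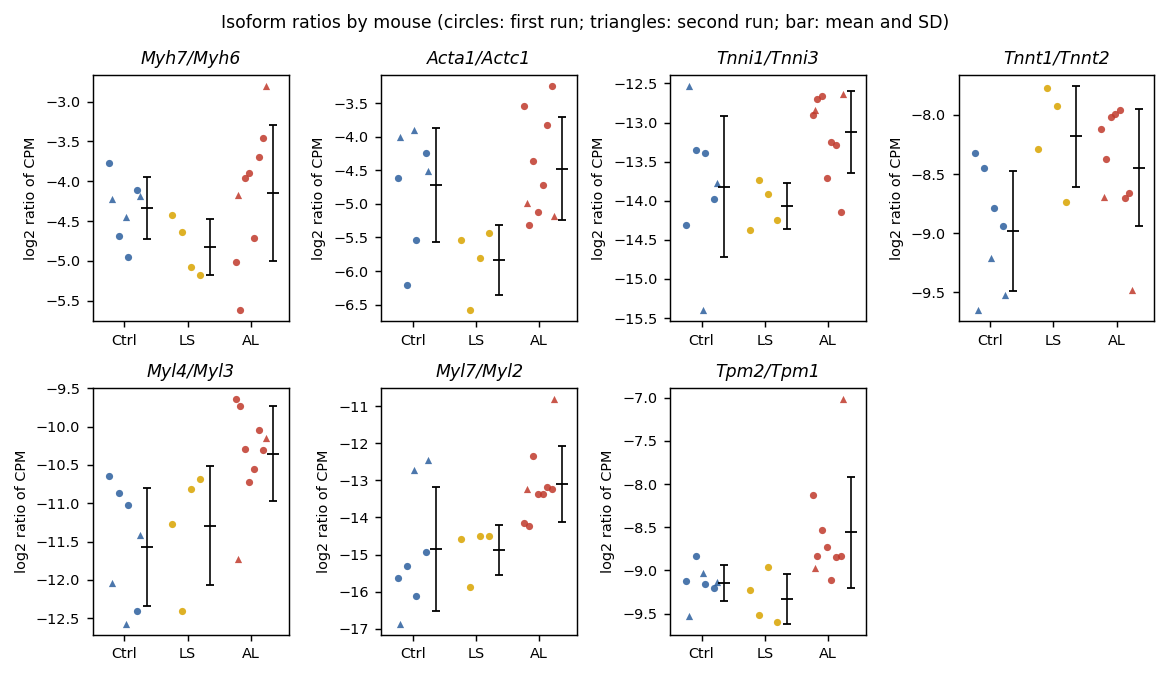
Log2 ratio of CPM for the 7 isoform pairs in each mouse, with circles for the first run, triangles for the second, and bars for the group mean and SD. AL mice lie above most LS and Ctrl mice for Myl4/Myl3, Myl7/Myl2 and Tpm2/Tpm1, and AL9 is the highest mouse for Myh7/Myh6, Myl7/Myl2 and Tpm2/Tpm1.

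Titin itself did not pass, at 5663 ± 1039 CPM in AL (n = 9) and 6633 ± 1159 in Ctrl mice (n = 7) with a log2FC of -0.13 (95% interval -0.33 to 0.06). Of the 8 partners that bind titin or sense its strain, none was called against Ctrl. The ankyrin repeat proteins Ankrd1 and Ankrd23, which respond to stretch, had log2FC of 0.56 (SE 0.218, FDR = 0.0641) and 0.58 (SE 0.276, FDR = 0.125). Ankrd23 had its highest values in AL9 (1044 CPM), AL7 (788) and AL6 (614.5), while AL4 (235) and AL3 (265) lay below all but 1 Ctrl mouse. The muscle LIM protein Csrp3 was lower in AL than in LS mice, with 624 ± 85.2 CPM (n = 9) against 848 ± 103 (n = 4) and a log2FC of -0.43 (SE 0.142, FDR = 0.0339), but not than in Ctrl mice (665 ± 140, n = 7, log2FC -0.10, FDR = 0.578). Tcap, which caps titin at the Z-disc, and the LIM proteins Fhl1 and Fhl2 had log2FC of -0.16, 0.35 and 0.08 against Ctrl (FDR = 0.392, 0.0573 and 0.538).
At the Z-disc, nebulette Nebl, which links actin to the Z-disc of cardiac muscle (ENSMUSG00000053702, chromosome 2, 17343909 to 17731464), was lower in AL mice. In the first run AL mice ranged from 162 to 341 CPM and lay below all Ctrl mice (380 to 456 CPM) and all LS mice (459.5 to 486.5 CPM). In the second AL8 and AL9 had 197 and 163 CPM beside 240 to 278 CPM in Ctrl mice. AL mice thus lay below Ctrl mice in each run, while the runs differed from each other. The log2FC was -0.82 (SE 0.125, FDR = 0.000537) against LS and -0.59 (SE 0.107, FDR = 0.000923) against Ctrl. The call against LS was kept under all 34 alternatives, with log2FC of -0.94 to -0.73. The value against Ctrl sits at the size threshold, and without any one of AL1, AL6, AL7, AL9, Ctrl3 or Ctrl5 its log2FC was -0.53 to -0.58 and it was no longer called (FDR at most 0.00366). In all, this call was lost under 13 of 35 alternatives, among them Xist as a covariate (log2FC -0.52, FDR = 0.00174).
Synpo2l, an actin-associated Z-disc protein (ENSMUSG00000039376, chromosome 14, 20658946 to 20668354), was higher in AL than in Ctrl mice. AL mice had 98.7, 158 and 333 CPM as lowest, median and highest values, Ctrl mice 69.1, 98 and 161 CPM, and LS mice 85.2 to 140 CPM. In the first run the lowest AL mouse, AL2, lay just above the highest Ctrl mouse (98.7 against 98 CPM). In the second AL8 (158.4 CPM) lay below Ctrl7 (160.6 CPM), and AL9 (333.2 CPM) lay above all Ctrl mice. The log2FC was 0.73 (SE 0.173, FDR = 0.00522) against Ctrl, 0.59 (FDR = 0.0188) without AL9, and 0.38 (FDR = 0.191) against LS. Desmin, the intermediate filament that ties Z-discs together, rose by less, with 1616 ± 492 CPM in the 9 AL mice, 1148 ± 90.9 in the 4 LS mice and 1245 ± 146 in the 7 Ctrl mice, and log2FC of 0.45 (SE 0.0899, FDR = 0.00169) and 0.34 (SE 0.109, FDR = 0.0306). The PDZ-LIM protein Ldb3 was lower than in Ctrl mice at a log2FC of -0.17 (SE 0.059, FDR = 0.0421). The core cross-linker Actn2 had a log2FC of 0.15 (95% interval 0.02 to 0.28, FDR = 0.0717). Of the other Z-disc members, Pdlim1, Pdlim5, Myoz1, Myoz2, Flnc, Mypn, Myot, Xirp1 and Xirp2 had log2FC between -0.02 and 0.24 against Ctrl, and none passed.
At the M-band, the myomesin Myom2 (ENSMUSG00000031461, chromosome 8, 15057653 to 15133541) was lower in AL than in LS mice. AL mice had 760, 1221 and 1924 CPM as lowest, median and highest values, and LS1 to LS4 had 2154, 2243, 1727 and 1493 CPM. Ctrl mice, at 1113, 1634 and 2490 CPM, overlapped both groups. The log2FC was -0.78 (SE 0.2, FDR = 0.00922) against LS and -0.44 (SE 0.171, FDR = 0.0646) against Ctrl. Myom1, Myom3 and Obsl1 had log2FC of 0.12 to 0.21 against Ctrl, and none passed.
Of the assembly and turnover genes, Smyd1, a muscle methyltransferase that acts on myosin assembly, was lower in AL mice without reaching the size threshold. AL mice had 310 to 490 CPM, LS mice 536 to 604 CPM and Ctrl mice 437 to 624 CPM. AL and LS mice did not overlap, nor did AL and Ctrl mice of the first run. The log2FC was -0.50 (SE 0.104, FDR = 0.00261) against LS and -0.43 (SE 0.0886, FDR = 0.00202) against Ctrl. The ubiquitin ligase Fbxo32 had log2FC of -0.40 (FDR = 0.0661) and -0.37 (FDR = 0.0892) in its 2 entries, and the related Trim63, counted among the titin partners, 0.10 (FDR = 0.545).
Altogether 17 of the 52 entries passed by FDR in AL against Ctrl, AL against LS or both. The other 35 entries had log2FC from -0.40 (Fbxo32) to 0.61 (Tnni1) against Ctrl and from -0.38 (Lmod3) to 1.71 (Ankrd2) against LS. Ankrd2 had 0 to 26 counts in AL mice beside 1 to 5 in LS mice, and its difference did not pass (SE 0.642, FDR = 0.0597).

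Between LS and Ctrl mice 0 of 52 members passed by edgeR (also 0 by DESeq2), beside 0.0207% of all entries. The median log2FC was 0.12 over the members and 0.0003 over all entries. Of the 52 members, 36 had a log2FC above 0 (69.2%, beside 50.1% of all entries), so a small shift of the set was also present without deposits. At an unadjusted p under 0.05 there were 7 members (13.5%, beside 5.94% of all), with Csrp3, Myom1, Myoz2, Pdlim1 and Tnnt1 higher and Ankrd2 and Myh7b lower. Every LS mouse lay above every Ctrl mouse for the calsarcin Myoz2 (818 to 962 against 585 to 779 CPM) and for Nebl, beside 1.89% of all entries, and below every Ctrl mouse for Ankrd2 and Myh7b, beside 1.28% (2.22% within the first run). Ankrd2 had 1 to 5 counts in LS mice, so its level there is near the limit of detection. Nebl did not overlap within the first run either (459.5 to 486.5 against 380.5 to 455.6 CPM, as for 3.03% of all entries), and its log2FC from all mice was 0.23 (FDR = 0.872).
More members differed between the sequencing runs than between the groups. Against the first run, 29 members differed in the second at an FDR under 0.05 (55.8%, beside 43.7% of all entries), 20 of them higher and 9 lower, and 10 passed the size threshold (19.2%, beside 19.4%). Myh7b (log2FC 1.65), Myl7 (1.53), Myh7 (1.19), Myom3 (1.14) and Myh6 (0.79) were higher in the second run and Nebl (-0.62) was lower. Mybpc2 (0.76), Tnnt2 (0.70), Synpo2l (0.70) and Ankrd1 (0.63) were also higher at that size. Of these, Myl7, Mybpc2, Synpo2l, Myh7b, Myh6 and Nebl also passed in a comparison of AL mice with another group, and values within each run are therefore given for them beside the pooled ones. Des (0.52), Mybpc3 (0.51), Myom2 (0.49), Tpm2 (0.48) and Ldb3 (0.23), which also passed in AL mice, differed between runs by FDR without reaching the size threshold.
The difference between AL and Ctrl mice was estimated in each run by an interaction of group and run. No member differed between runs at an FDR under 0.05 (99 of all entries, 0.684%, did), and 3 did at an unadjusted p under 0.05 (5.77%, beside 15.2% of all entries). Acta1 had a log2FC of 1.06 (SE 0.467) in the first run and -1.08 (SE 0.679) in the second (FDR of the difference 0.236). Desmin had 0.30 (SE 0.096) and 0.79 (SE 0.137), and Myom1 0.03 (SE 0.0936) and 0.49 (SE 0.135), with FDR of 0.176 and 0.2 for the difference. Tpm2 had 0.80 and 1.51, Mybpc2 0.94 and 2.04, Myl4 0.95 and 1.08, Synpo2l 0.69 and 0.84, Nebl -0.61 and -0.51, and Mylk3 -0.44 and -0.57. In all 6 the direction was the same in both runs. It was also the same for Myl7 (2.45, SE 0.62, and 0.945, SE 0.852) and Myh6 (-0.42 and -0.11), but both were smaller in size in the second run. When the 2 AL and 3 Ctrl mice of the second run were fitted alone, no member reached an FDR under 0.05, beside 0.128% of all entries, and Tpm2 and Mybpc2 had FDR of 0.228 and 0.21. In the interaction fit, which takes its spread from all mice, 4 members passed in the second run, namely Des (FDR = 0.0116), Tpm2 (0.0163), Mybpc2 (0.0179) and Myom1 (0.0388), which is 7.69% beside 8.57% of all entries.

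**Figure D5:**
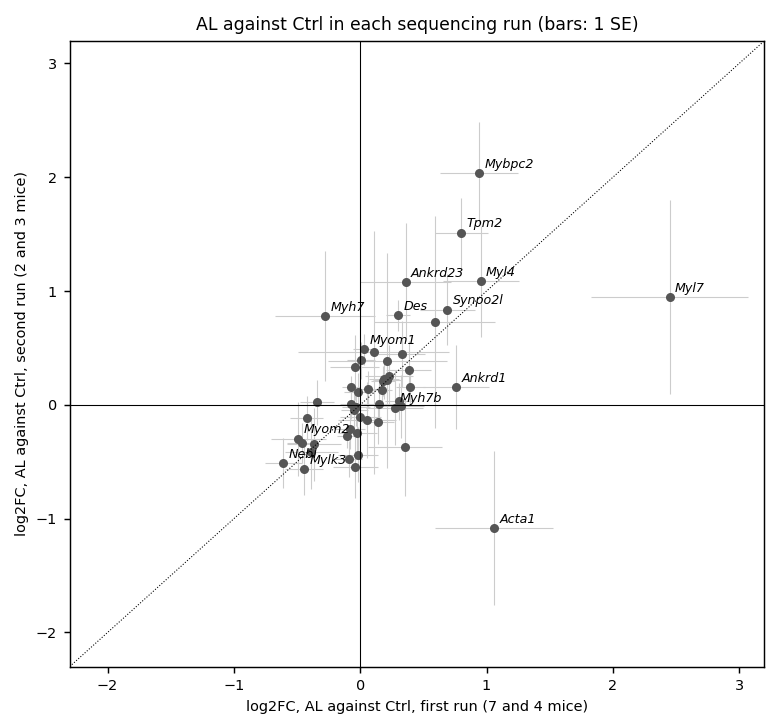
Log2FC of AL against Ctrl mice in the first run (x axis, 7 and 4 mice) and the second run (y axis, 2 and 3 mice) for the member entries, with bars of 1 SE and the line of equality dotted. Tpm2, Mybpc2, Myl4 and Synpo2l lie in the upper right, Nebl and Mylk3 in the lower left, and Acta1 lies at 1.06 and -1.08.

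Other genes of the muscle were read from lists. Among 35 tested sarcomere and Z-disc genes outside the members the median log2FC was 0.17 in AL against Ctrl mice, beside 0.01 over all entries. Of the 35, 4 were called higher and 1 lower, beside 4.1% and 3.71% of all entries. They were the skeletal light chain Myl1 (35.9 ± 9.46 CPM in AL, n = 9, and 17.4 ± 5.23 in Ctrl, n = 7, log2FC 1.00, FDR = 0.00102), the Z-disc protein Pdlim3 (1.05, FDR = 0.00105), and the fast troponins Tnni2 (1.14, FDR = 0.00102) and Tnnt3 (1.29, FDR = 0.0449), with Mylk4 the lower one.
Markers of skeletal muscle are given beside Mybpc2 and Tpm2. Of 9 tested among 18, 4 were called higher (Casq1, Myl1, Tnni2 and Tnnt3) and Cacna1s was lower, against Ctrl, beside 4.1% and 3.71% of all entries. Against LS 2 were called higher and 1 lower, beside 5.86% and 3.03%. The median log2FC of the 9 was 1.00 against Ctrl and 0.61 against LS, beside 0.01 over all entries in each comparison. The list summed to 46.2 to 75.4 CPM in AL, 42.7 to 64.3 in LS and 38.3 to 57.4 in Ctrl mice. The adult fast skeletal myosins Myh1, Myh2 and Myh4 reached at most 0.563 CPM in any mouse. The part of skeletal muscle in the result was not tested.
Of 30 costamere and intercalated disc genes, 12 were lower and 1 higher by FDR in AL against Ctrl mice (median -0.16), beside 15.4% lower and 10.7% higher of all entries, and the δ-sarcoglycan Sgcd was called (18.1 ± 3.88 CPM in AL, n = 9, and 28.9 ± 6.08 in Ctrl, n = 7, log2FC -0.75, FDR = 0.000319). Against LS 13 were lower by FDR, beside 13.6% of all entries. Of these, Sgcd, the N-cadherin gene Cdh2 and the αT-catenin gene Ctnna3 were called (log2FC -0.92, -0.59 and -0.60), beside 3.03% called lower of all entries. Of 26 entries for chaperones, small heat shock proteins and muscle ubiquitin ligases, Hspb1 (0.94, FDR = 0.0117) and Hspb6 (0.63, FDR = 0.000663) were called higher against Ctrl, beside 4.1% of all entries. Of 23 cardiac transcription factors 1 was higher and 5 were lower by FDR against Ctrl, beside 10.7% and 15.4% of all entries, without reaching the size threshold. Against LS Nfatc4 (0.77) was called higher and Myocd (-0.85) and Ppargc1a (-0.93) lower, beside 5.86% and 3.03% of all entries.
Markers of cell types were read alongside. Of 15 cardiomyocyte markers outside the members, 4 were lower by FDR in AL against Ctrl mice and 0 higher, beside 15.4% and 10.7% of all entries. Fsd2 was called (log2FC -0.81, FDR = 0.00015). The markers summed to 26700 to 40700 CPM in AL, 41000 to 46900 in LS and 35600 to 45200 in Ctrl mice. Macrophage markers included 3 called higher of 12 (Gpnmb, Lgals3 and Lyz2) and smooth muscle markers 1 of 12 (Acta2), beside 4.1% of all entries. The median log2FC of the 12 fibroblast markers was 0.32. AL9 had the highest fibroblast sum, 5460 CPM, and the highest macrophage sum, 808 CPM. The part of cell composition in the members' results was not tested.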

How the data were processed

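RNA from the heart apex of 9 AL, 4 LS and 7 Ctrl mice was sequenced as stranded, polyA-selected libraries. The authors aligned reads to GRCm38 with STAR and deposited estimated counts per gene from Salmon, of which 14.2% were not whole and were rounded here. Groups were taken from the labels. Members, lists and tests were chosen with earlier results of these data known.
Counts were scaled by TMM after filterByExpr (minimum count 10) and fitted over all 14477 entries with edgeR 4.0.16 (glmQLFit, R 4.3.3), with group and sequencing run as terms and all 20 mice in 1 fit. A member was called where its Benjamini-Hochberg FDR was under 0.05 and its log2FC was 0.58 or more in size, a fold of 1.5, and the rule for named members took every called one, every member of the 7 isoform pairs and any that differed between runs. Other names were chosen after their values were seen. CPM per mouse was not adjusted for the run. Ratios were tested by exact permutation within runs. Intervals are 95% intervals of the fit, and the limit of 3 counts covers counting error only.
Alternatives used DESeq2 1.42.0, ComBat-seq (sva 3.50.0), other filters, scaling and covariates, and fits without each mouse. On simulated counts (14362 genes) recovery was counted at an FDR under 0.05 alone, without the size threshold. For AL against Ctrl the test recovered 24% of genes changed by 0.4 on the log2 scale, 80% at 0.8 and 100% at 1.5, with 2.56% of genes passing false. For AL against LS it recovered 12%, 68% and 96%, with 4.17% false. Genes at low levels were not changed there, and the spread followed the trend over genes. The rates therefore do not cover low members such as Myl7, Tnni1 and Ankrd2, or members more variable than the trend. Same-numbered mice of the first run had correlations of their deviations of -0.154 to 0.231, so numbers were not taken as pairs. No pair of libraries was identical (correlations 0.893 to 0.98). Nothing states that mice of a group came from separate litters, and p-values measure the spread between these mice. Promoters came from RefSeq (GRCm38.p6), and gene coordinates from a GRCm38 annotation. Reads of Myh6 and Myh7, and of Acta1, Actc1 and Acta2, may be divided uncertainly.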

Additional observations from a re-analysis of the deposited data

Results flagged for a closer look

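For the called members, the members of each isoform pair and the 7 ratios, 81 groups of 4 to 9 mice were examined. Chance gives about 1 in 20 groups with 1 mouse farther from the others than Dixon's 95% value. AL and Ctrl groups pooled both runs and the ratios reused the members, so that rate is only a rough guide. In 13 groups 1 mouse lay beyond that value. Of these, 7 were AL9, a mouse of the second run.
In AL9, Mybpc2 was at 137.9 CPM (nearest AL mouse 48.82), Myh7 at 4928 CPM (2248), Synpo2l at 333.2 CPM (198.1) and Tpm2 at 39.5 CPM (23.88), while Myl2 was low at 3496 CPM (7733). Its log2 ratios of Tnnt1 to Tnnt2 and of Tpm2 to Tpm1 were -9.481 (nearest -8.701) and -7.016 (-8.128). AL9 also had the highest summed fibroblast markers (5460 CPM), the lowest sum of cardiomyocyte markers outside the members (26700 CPM), the lowest mitochondrial share of counts (18.3%, beside 23.9% to 37.1% in the other mice) and the highest TMM factor (1.299), and the part of these in its values was not tested.
In LS2, Acta1 was at 89.59 CPM (nearest LS mouse 167.2), Myl7 at 0.1262 CPM (0.3307) and Myl2 at 10660 CPM (9372), and the log2 ratio of Myl7 to Myl2 was -15.88 (-14.59). Myh7b in AL8 was at 155.3 CPM (89.25 in AL9, the other AL mouse of that run), beside 99.4 to 155.4 CPM in Ctrl mice of that run. Tpm2 in Ctrl6 was at 11.15 CPM (9.473).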

How the results depend on the processing

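In AL against Ctrl, 6 members called became 3 with at least 10 counts in every mouse (5.23% of all entries called there, beside 7.81%), 3 with no run term (6.13%) and 0 in the second run alone (0.128%), and 5 to 7 without 1 mouse. The 12 members at an FDR under 0.05 became 20 with DESeq2 (30.6% of all entries, beside 26.2%), 6 with ComBat-seq counts (5.35%), 6 with no run term (15.1%), 0 in the second run alone (0.128%) and 4 without the 5 mice of highest Alb (6.63%, an alternative chosen after seeing the data), and 10 to 16 without 1 mouse. With the replicate number as a block it was 7 (14.9%), and 4 were called (5.88%). In AL against LS, 7 called (8.9% of all entries) became 4 with ComBat-seq counts (4.42%), 4 with no run term (8.33%) and 2 without the 5 mice of highest Alb (3.19%), but 10 in the first run alone (11.5%) and 10 with DESeq2 (10.7%), and 4 to 9 without 1 mouse (4 without AL6 and without LS2). The 12 at an FDR under 0.05 (23.4%) became 4 (4.42%), 6 (16.4%), 3 (5.23%), 18 (32.5%) and 16 (28.8%) under those settings, and 7 to 15 without 1 mouse (7 without LS2 and without LS3). With the block 5 were called (8.48%) and 10 passed by FDR (21.4%), and between LS and Ctrl 0 (0.0207%). The 3 ratios that passed in AL against Ctrl became 1 to 3 without 1 mouse (1 without AL9), and the 4 in AL against LS became 0 to 4 (0 without LS2, 2 without LS4). The causes were not tested, except that fewer mice enter the fits that leave mice out.
No direction of a called value was reversed. Of the values for single members and ratios under the alternatives, 1722 kept their side of the threshold, 76 lost it, 13 gained it and 26 moved. Second-run libraries hold fewer counts, which limits Myl7, Tnni1 and Ankrd2 there, and LS mice were in the first run alone, so AL against LS rests on the run term for AL8 and AL9.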
